A study of Mus musculus with 16 samples.

Results

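The report concerns 626 merged H3K4me2 peaks that were strongest in mTEC-I, a population of medullary thymic epithelial cells (mTEC) of the mouse. They were chosen on the measured values: a peak was taken where its mean over both mTEC-I libraries reached 50 tags per 10000000 tags of a library and was at least 1.5 times the highest of the means of mTEC-II, mTEC-III and mTEC-IV. This left 626 of the 29470 merged peaks outside the mitochondrial genome (2.12%), and the file assigned them to 594 genes, 3.77% of the 15739 genes with a peak. The contrast of mTEC-I with the other populations fixed the choice, so it is described below and not tested.

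The study profiled the mark by chromatin immunoprecipitation and sequencing in 4 sorted populations of the C57BL/6 thymus, with 2 libraries each. All cells were CD45- and Epcam+. The mTEC-I gate was MHCIIlow Itgb4+, the mTEC-II gate MHCIIhigh, the mTEC-III gate Ly6D+, and the mTEC-IV gate MHCIIlow Itgb4- L1cam+. The labels name no treatment or mutation and give no age, and they do not say whether replicates came from separate mice, and a p-value thus speaks only for the spread of these libraries, which may be technical.

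Dimethylation of lysine 4 on histone H3 (H3K4me2) marks promoters and enhancers that are active or poised, and a gain of the mark at a region often goes with use of that region by the cell type. The thymic medulla holds several epithelial types that show self antigens to developing T cells or shape their surroundings. Cells with low MHC class II and with integrin beta 4, which binds the laminin of basement membranes, are known as a junctional or basal type that makes chemokines, and the other types include cells at the Aire stage, cornified cells and tuft cells.

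Regulatory sequence was available here as RefSeq promoters, which span 250 bases before to 50 bases after a gene's start. In 288 members (46.0%, beside 44.8% of all merged peaks) the start site of the assigned gene lay inside the peak, and 207 of these matched RefSeq promoters by gene ID, 299 promoters in all. The interferon-stimulated response element (ISRE) is the motif bound by the factors that interferons activate. The promoters of 4 members that hold it are shown because interferon-induced genes recur in the results below. Capitals mark each match to the motif searched, GAAA and GAAA with any 2 bases between them, or to its reverse complement, written 5′ to 3′ on the strand of the gene, from RefSeq on GRCm38.p6.
Ifit3: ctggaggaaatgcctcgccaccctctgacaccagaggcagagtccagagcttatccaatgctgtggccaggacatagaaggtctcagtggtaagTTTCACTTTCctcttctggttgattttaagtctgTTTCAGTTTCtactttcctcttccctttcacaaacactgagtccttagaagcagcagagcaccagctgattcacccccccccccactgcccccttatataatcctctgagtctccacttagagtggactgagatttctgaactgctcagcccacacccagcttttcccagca
Oas3: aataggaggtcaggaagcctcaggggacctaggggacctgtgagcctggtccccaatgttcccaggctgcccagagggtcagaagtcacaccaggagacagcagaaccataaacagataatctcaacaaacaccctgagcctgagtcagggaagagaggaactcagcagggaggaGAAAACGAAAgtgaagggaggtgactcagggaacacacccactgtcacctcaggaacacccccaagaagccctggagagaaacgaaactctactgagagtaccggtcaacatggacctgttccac
Ddx60: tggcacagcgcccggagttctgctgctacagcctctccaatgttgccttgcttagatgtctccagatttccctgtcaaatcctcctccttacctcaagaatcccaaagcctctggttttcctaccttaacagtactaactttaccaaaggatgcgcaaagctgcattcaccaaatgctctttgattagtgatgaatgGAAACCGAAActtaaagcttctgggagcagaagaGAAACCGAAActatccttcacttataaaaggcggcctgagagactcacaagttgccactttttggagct
Tgtp1: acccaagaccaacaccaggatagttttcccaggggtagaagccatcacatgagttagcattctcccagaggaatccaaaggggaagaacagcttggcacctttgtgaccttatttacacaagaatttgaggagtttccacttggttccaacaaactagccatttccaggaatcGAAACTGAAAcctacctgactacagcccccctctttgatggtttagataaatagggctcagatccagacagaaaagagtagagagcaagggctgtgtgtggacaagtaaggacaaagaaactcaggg
The Ifit3 promoter held 2 matches, beginning at -156 and -122 from the start site, and the Ddx60 promoter held 2, beginning at -53 and -19. The Oas3 promoter held 1 at -75 and the Tgtp1 promoter 1 at -77. No match of the other motifs searched overlapped these matches.

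Among the 299 promoters of genes with a start site in a member, 18 (6.02%) held the ISRE on either strand. The share was 2.97% (381 of 12843) for promoters of genes with a start site in any merged peak, and 3.44% for all 32851 promoters in the table. A gene can have several promoters, and not each of them was checked to lie in the peak. The shares of the other 7 motifs, in the 299 and then in the 12843 promoters, differed by smaller factors. They were 6.35% and 5.20% for AP-1 (TGANTCA), 2.34% and 1.67% for NF-kappaB (GGG and TTTCC with any 2 bases between them), 10.0% and 6.75% for STAT (TTCNNNGAA), and 14.7% and 11.9% for TEAD (GGAATG). They were 3.68% and 3.50% for RUNX (TGTGGTT), 2.01% and 2.51% for FOX (TGTTTAC), and 9.03% and 6.99% for the p53 family element. A match describes letters in a window and is not evidence that a factor bound there, and no test was run on these shares.

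Of the 13 miRNA genes with a member, 2 are named in the results below, and the mature sequence of the better-known arm of each is shown, from RefSeq. Capitals mark the seed, bases 2 to 8, which pairs with target transcripts.
miR-205-5p: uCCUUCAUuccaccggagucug
miR-125b-5p: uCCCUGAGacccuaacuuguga
The seeds differ, and both miRNAs are known from epithelial and stem cells, miR-205 as a marker of stratified epithelium. Of the 13 genes, 10 had a mature sequence in the table.

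In every library the level is the deposited signal, in tags per 10000000 tags. The mTEC-I libraries were the shallowest, with 6461587 and 1702103.5 tags, while those of the other populations held 7926038.5 to 15412132.5. A single tag was therefore worth 1.55 units in mTEC-I replicate 1 and 5.88 in replicate 2. Replicate 2 held a median of 20.75 tags in a member, and 26 members rested on fewer than 10 of its tags. No peak of a gate gene was a member. The summed peaks of Itgb4 held 330.4 and 285 in mTEC-I against 216 to 242 elsewhere, Ly6d was highest in mTEC-III at 315 and 351, and L1cam was highest in mTEC-IV at 181 and 200.1. The mark at the MHC class II genes did not separate the MHCIIlow mTEC-I from the MHCIIhigh mTEC-II in this way: H2-Aa held 457 and 432 in mTEC-I against 406 and 398 in mTEC-II, H2-Ab1 held 586 and 543 against 607 and 649, and H2-Eb1 held 961 and 931 against 989 and 1023. The mTEC-IV libraries also held 265 to 269 at the 3 peaks of the blood gene Ptprc, which encodes CD45, where the other 6 held 30.03 to 48.9, and the part of other cells in results on mTEC-IV was not tested.

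The median member held 116 tags per 10000000 in mTEC-I, 58.9 in mTEC-II, 46.4 in mTEC-III and 50.5 in mTEC-IV. Most members were modest differences in degree: the median ratio of mTEC-I to the next population was 1.70, and 126 members (20.1%) reached a ratio of 2, 20 reached 3 and 7 reached 5. In 611 members (97.6%) both mTEC-I libraries lay above all 6 others, and in 372 each mTEC-I library alone was at least 1.5 times the highest other mean. The rule favours such peaks and used the same values, so both counts describe the choice and are no separate replication. The same shares over all merged peaks are not given here. The plot of levels shows the members as the upper edge of a continuous cloud.

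**Figure D1:**
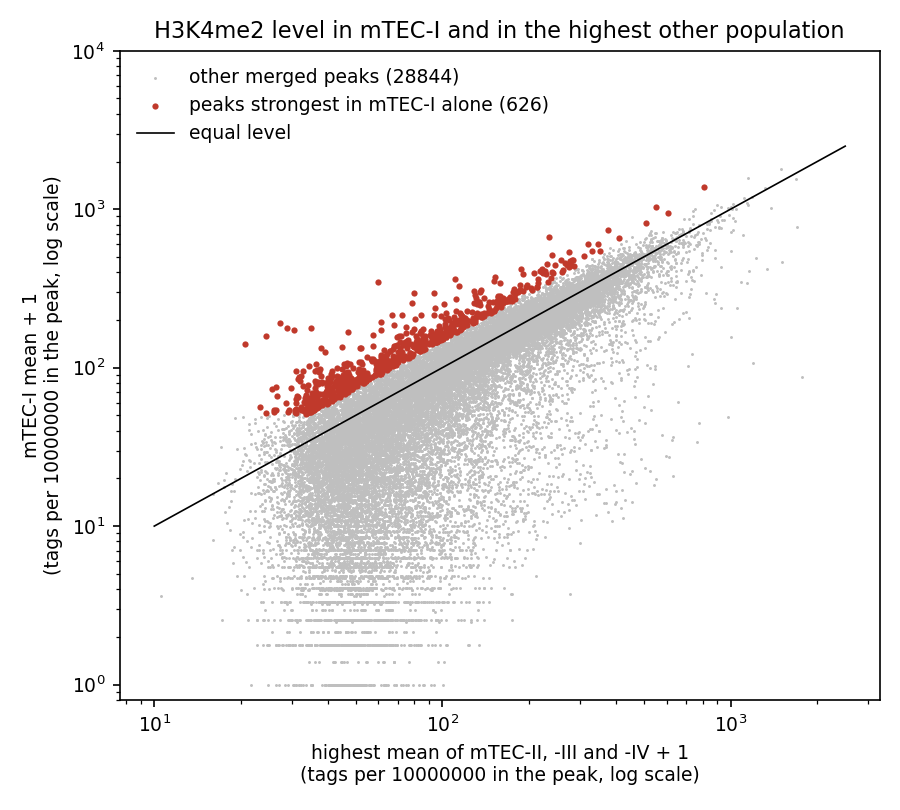
H3K4me2 level of each merged peak in mTEC-I (vertical) against the highest of the other 3 population means (horizontal), both as tags per 10000000 plus 1 on log scales, with the 626 members in red and the line of equal level in black. The members lie above the line by construction and form no separate cloud, and the few that stand well clear of the rest have ratios of 5 or more.

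The highest ratios belonged to genes of several kinds, Mgp, Tagln, Lamb3, Plekha7, Col6a1, Ifit3 and Ifi27l2a among them. Mgp encodes matrix Gla protein, an inhibitor of calcification. Its peak (chr6:136822388-136824600, mm9, intron 1) held 184 and 197 tags per 10000000 in mTEC-I against 23.4 and 29.2 (mTEC-II), 10.1 and 3.53 (mTEC-III) and 12.1 and 11.9 (mTEC-IV). The mTEC-I mean of 190.5 ± 8.9 (SD, n = 2) was 7.24 times the next, the highest ratio of all members. Tagln, the gene of the actin-binding protein transgelin, held 119.9 and 162 in mTEC-I at its intron 1 peak (chr9:45742723-45744893), and 7.57 to 21.5 in the 6 others. Both mTEC-I libraries stood far above all others at both genes, and lying above them was a condition for being named here.

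Lamb3 encodes the beta chain of the laminin that basal epithelial cells grip through integrin beta 4. Its peak in intron 1 (chr1:195128371-195130451) held 164 and 191 in mTEC-I against 30.5 and 25.2 (mTEC-II), 19.6 and 18.8 (mTEC-III) and 4.95 and 12.6 (mTEC-IV). Plekha7, a protein of the adherens junction, held 193 and 120.4 in mTEC-I at an intron 2 peak (chr7:123327895-123330333) and 4.40 to 24.98 elsewhere. Col6a1, a chain of collagen VI, held 161 and 182 in mTEC-I in intron 2 (chr10:76186780-76188520) and 8.25 to 30.5 elsewhere. At these 3 genes mTEC-II came next and mTEC-IV was lowest.

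Ifit3, an antiviral protein induced by interferon, had a peak over its start (chr19:34657099-34661281) with 353 and 335 in mTEC-I against 57.1 and 60.7 (mTEC-II), 55.5 and 61.2 (mTEC-III) and 21.99 and 19.1 (mTEC-IV). This is the peak over the first promoter shown above, and its ratio was 5.84. Ifi27l2a, a second interferon-induced gene, held 337 and 382 in mTEC-I beside 70.7 to 111 in the other 6 libraries, with mTEC-III next. The remaining genes of the 12 highest ratios were Schip1, 3110039I08Rik, Mansc4, St5 and Pde4b, a phosphodiesterase of cyclic AMP. Of these, 3110039I08Rik had mTEC-IV next, at 71.5 and 85.4 beside 281 and 311 in mTEC-I, while St5 was lowest in mTEC-IV, at 15.9 and 9.56 beside 251 and 261.

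**Figure D2:**
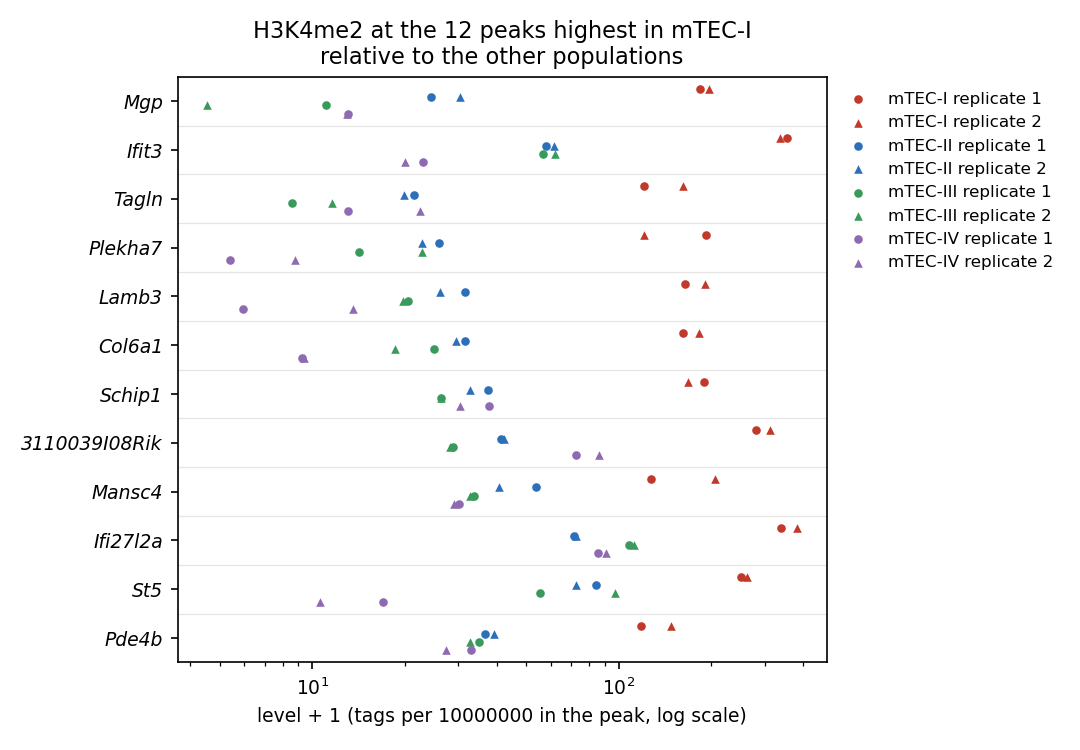
Level in each of the 8 libraries (tags per 10000000 plus 1, log scale; circles replicate 1, triangles replicate 2) at the 12 members with the highest ratio of mTEC-I to the next population, after 10 was added to both means. Both red points lie to the right of every other point in all 12 rows because only such members could be named. The order of the other 3 populations differs from gene to gene.

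The members with the highest level were other peaks, with lower ratios. Il7, the cytokine that early T cells need to survive, had the strongest member, a broad peak over its start and first intron (chr3:7603650-7618653). It held 1398 and 1381 tags per 10000000 in mTEC-I against 818 and 799.7 (mTEC-II), 573 and 718 (mTEC-III) and 708 and 678 (mTEC-IV). The other 11, in falling order, were Hoxa2, Six2, Meis1, Arhgef17, Iigp1, Kctd4, Fgfr2, Lifr, Flrt3, Mir125b-1 and Snai2. Hoxa2, Six2 and Meis1 are homeobox transcription factors that pattern the embryo, and Snai2 is a zinc-finger repressor of epithelial genes. A wide peak collects more tags than a narrow one, and per kb of peak the mTEC-I level of these 12 lay between 71.5 for Fgfr2 and 97.5 for Iigp1, while among all members it ran from 34.7 to 244 per kb. Il7 stood at 92.6 per kb, below Col6a1 at 98.5 per kb and Pde4b at 108 per kb.

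At Hoxa2 the peak over exon 1 (chr6:52107439-52121177) held 1093 and 969 in mTEC-I against 514 and 583 (mTEC-II), 232 and 305 (mTEC-III) and 409.6 and 433 (mTEC-IV). Both members of Hoxaas2, an antisense RNA of the same cluster, followed it on the chromosome (chr6:52121723-52125165 and chr6:52125507-52129930), with ratios of 2.53 and 2.39. The counting is not stated to use strand, and a histone mark has none, so these peaks belong to the locus and not to either transcript. Six2 (chr17:86081878-86094117) held 949 and 940.0 in mTEC-I beside 377 to 614 in the other 6 libraries. Meis1 had a member 143953 bases from its start site, with 828 and 796 in mTEC-I against 452 to 509 elsewhere.

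Receptors were among the genes with most members. Lifr, the receptor of leukaemia inhibitory factor, and Npr3, a clearance receptor of natriuretic peptides, had 3 each, and Fgfr2, a receptor for fibroblast growth factors that thymic epithelium needs to grow, had 2. The strongest Lifr member lay in intron 2 (chr15:7077830-7084787) and held 587 and 611 in mTEC-I against 330 and 308 (mTEC-II), 266 and 259 (mTEC-III) and 307 and 310.1 (mTEC-IV). The strongest Fgfr2 member, in intron 1 (chr7:137402701-137411186), held 684 and 529 in mTEC-I beside 233 to 354 in the other 6 libraries. A single Npr3 member lay over its start site (342.8 and 303 in mTEC-I, 107 to 221 elsewhere), and both others lay far from it, at distances of 192901 and 211496 bases. Mir125b-1, Hoxaas2 and Stx6, a protein of membrane traffic, had 2 each. In all, 564 genes had 1 member, 28 had 2 and 2 had 3.

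The strongest Mir125b-1 member (chr9:41387291-41394305) held 537 and 546 in mTEC-I against 327 and 332 (mTEC-II), 122 and 170.2 (mTEC-III) and 155 and 161 (mTEC-IV). A second lay 153710 bases from the start site, and the 3110039I08Rik member lies nearby on the same chromosome (chr9:41134215-41137791). At Mir205 the peak (chr1:195332315-195336973), whose centre lies upstream of the start site, held 501 and 438 in mTEC-I against 115 and 109.6 (mTEC-II), 266 and 288 (mTEC-III) and 62.7 and 38.8 (mTEC-IV). Below mTEC-I the next population was thus mTEC-II at Mir125b-1 and mTEC-III at Mir205, and mTEC-II was above mTEC-IV at both.

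Gene lists of known roles were read against the background that 3.77% of all genes with a peak, and 2.12% of all peaks, had a member. The counts describe the choice of members and carry no test. Members were found for 36.4% of fibroblast genes with a peak, 31.25% of cortical genes, 24% of interferon-induced genes, 23.8% of chemokine and interleukin genes and 20% of basal genes, and for none of the Aire-stage, cornified and blood lists.

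Of 25 interferon-induced genes with a peak, 6 had a member (16.2% of the list's 37 peaks): Ifit2, Ifit3, Iigp1, Mx1, Ifi44 and Oas3. Iigp1, a GTPase that attacks parasite vacuoles, held 686 and 640.4 in mTEC-I against 239 and 226 (mTEC-II), 111 and 143 (mTEC-III) and 114 and 108 (mTEC-IV). Ifit2, a neighbour of Ifit3, held 361 and 382 in mTEC-I beside 112 to 153 in the other 6 libraries. Mx1, an antiviral GTPase, held 351 and 244 in mTEC-I against 169 and 180.3 (mTEC-II), 97.8 and 131 (mTEC-III) and 40.7 and 41.8 (mTEC-IV). At all 3 genes both mTEC-I libraries lay above the 6 others, as in 97.6% of all members. Ifi44 held 258 and 253 in mTEC-I beside 90.8 to 134 in the other 6 libraries. Oas3, a sensor of double-stranded RNA, was the weakest, at 176 and 112 in mTEC-I beside 68.1 to 95.3 in the other 6 libraries. Higher mTEC-I signal was not restricted to members: 18 of the other 31 peaks of the list were highest in mTEC-I too. Among genes without a member, 25.9% of all peaks and 39.5% of start-site peaks were highest in mTEC-I. The summed level of the list was 8674 and 8272 in mTEC-I against 5350.01 to 5867 in the other libraries. That sum includes the 6 members, which were chosen for high mTEC-I signal. Reads from near-identical genes, such as Ifit3 and Ifit3b, Oas1g and its relatives, or Tgtp1 and Tgtp2, may have been assigned to either copy.

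Of 20 basal and junctional genes with a peak, 4 had a member, 7 peaks in all. Krt5, the keratin of basal epithelium, had 2. The one in intron 4 (chr15:101538697-101542997) held 287 and 249.7 in mTEC-I against 67.8 and 53.7 (mTEC-II), 111 and 109.5 (mTEC-III) and 17.6 and 8.96 (mTEC-IV). The upstream one (chr15:101543516-101545188) held 126 and 159 in mTEC-I against 32.1 and 31.8 (mTEC-II), 68.8 and 77.7 (mTEC-III) and 15.4 and 17.3 (mTEC-IV). Both kept the order mTEC-I, mTEC-III, mTEC-II, mTEC-IV with no overlap between populations. Pdpn, podoplanin, a membrane protein of junctional mTEC and stroma, held 303 and 270.25 in mTEC-I against 137 and 120.7 (mTEC-II), 86.4 and 83.6 (mTEC-III) and 68.7 and 83.0 (mTEC-IV). Lamb3 and Lifr, given above, were the others. Krt7, a keratin of simple epithelium, was the only member gene of 14 pan-epithelial genes with a peak, at 402 and 394 in mTEC-I against 173 to 210.3 elsewhere.

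Genes known from the cortical epithelium, where T cells are first selected, were also among the members, in 5 of 16 with a peak. They were Il7, Ctsl (a lysosomal protease), Prss16 (the thymus-specific serine protease), Bmp4 and Ccl25 (a chemokine that draws T-cell precursors). Ctsl held 358 and 420.1 in mTEC-I against 185 to 229 elsewhere. Prss16 held 153 and 197 in mTEC-I against 82.4 to 124 elsewhere. Bmp4, a growth factor of thymic patterning, held 112 and 149.8 in mTEC-I beside 54.9 to 88.1 in the others. The Ccl25 member, an intergenic peak 55377 bases from the start site, held 91.3 and 67.6 in mTEC-I beside 35.3 to 53.2. Summed over all its peaks, Ccl25 held 190.4 and 190.9 in mTEC-I against 149.9 and 169.2 in mTEC-II. No mTEC-I library overlapped the others at the member of any of the 5 genes, as in 97.6% of all members. Of the other 36 peaks of this list 8 were highest in mTEC-I. Summed over all peaks of the gene, Cd83, Dll4, Foxn1, Krt8, Krt18, Ly75, Psmb11 and Tbata had a higher mean in another population. Foxn1, the master regulator of thymic epithelium, held 460.4 and 455 in mTEC-I against 609 and 606 in mTEC-II, and Krt8 held 515 and 558 in mTEC-I against 1108 and 1198 in mTEC-IV. The sum over the peaks of Prss16, its member included, was 943 and 1052 in mTEC-I against 967 and 1006 in mTEC-II.

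**Figure D3:**
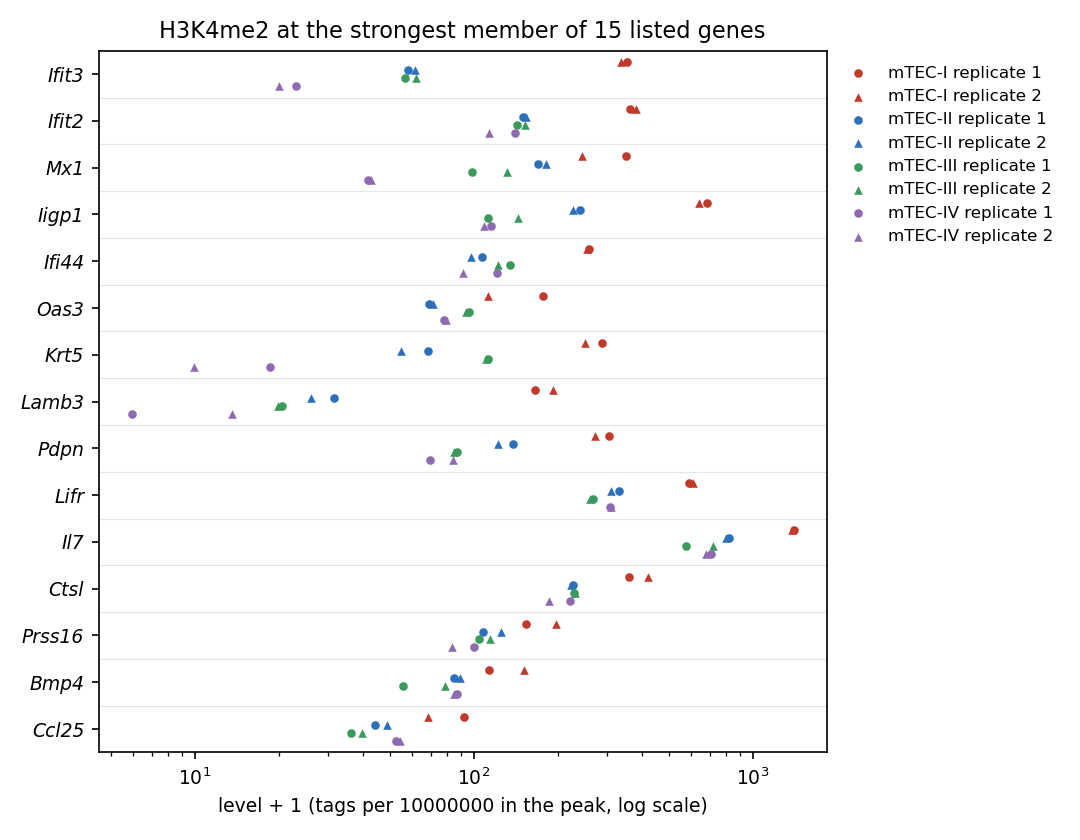
Level in each of the 8 libraries (tags per 10000000 plus 1, log scale; circles replicate 1, triangles replicate 2) at the strongest member of the 15 genes of the interferon, basal and cortical lists that had one. The red mTEC-I points lie farthest right in every row, which largely follows from the choice of members. The mTEC-IV points lie farthest left at, for example, Ifit3, Mx1, Krt5 and Lamb3.

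Genes of mesenchyme and matrix formed a further group. Of 11 fibroblast genes with a peak, 4 had a member: Pdgfra, a growth factor receptor (305 and 414 in mTEC-I, 132 to 219.9 elsewhere), Col6a1, Col6a2 (121 and 141 beside 25.1 to 53.3) and Dcn, the matrix proteoglycan decorin (72.0 and 103 beside 9.42 to 42.5). The summed level of the whole list was 1669 and 1865 in mTEC-I against 1203 and 1168 (mTEC-II), 838 and 999 (mTEC-III) and 1231 and 1316 (mTEC-IV). That sum includes the 4 members, which were chosen for high mTEC-I signal, so it does not show an excess of the list as a whole. Of the list's other 10 peaks, 4 were highest in mTEC-I, beside 25.9% of peaks of genes without a member. Col1a1, the defining gene of the list, had no member, with 88.2 and 67.6 in mTEC-I against 43.5 to 61.6 elsewhere. Pdgfrb was lower in mTEC-I, at 14.7 and 23.5, than in both mTEC-II and mTEC-IV. Col1a2, Col3a1, Lum, Postn and Twist2 had no merged peak. Of 9 endothelial genes 1 had a member (Sox18), with a summed level of 1331 and 1295 in mTEC-I against 1195 to 2050.3 elsewhere. The blood list had none, and was lowest in mTEC-I, at 580.4 and 673 beside 812 to 1034. Whether cells of another type added to the signal at Mgp, Tagln and these genes was not tested.

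Of integrin, laminin and collagen chains, 5 of 26 genes with a peak had a member: Lamc1, Lama4, Lamb3, Col18a1 and Col4a2. Lamc1, the gamma chain of most laminins, held 370 and 455 in mTEC-I against 237 to 284 elsewhere. Lama4, a laminin alpha chain of vessels, held 299 and 256 in mTEC-I against 187 and 153 (mTEC-II), 87.1 and 88.3 (mTEC-III) and 129 and 134 (mTEC-IV). None of the members was assigned to Itgb4 itself.

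Signalling genes had members as well. Of 31 genes of the BMP, TGF-beta and FGF pathways, 5 had one (ligand Bmp4, antagonist Nog, receptors Fgfr2 and Bmpr1b, and target Id1), and of 31 of the Wnt and Notch pathways 4 had one (receptors Fzd2 and Notch2, and the secreted proteins Sfrp2 and Dkk3). Fzd2 held 467 and 447 in mTEC-I against 264 and 266 (mTEC-II), 169 and 219 (mTEC-III) and 153 and 149 (mTEC-IV). Id1 held 438 and 426 in mTEC-I against 211 to 289 elsewhere. The Dkk3 member rested on 6.5 tags in mTEC-I replicate 2. Summed over all peaks of the gene, Notch2 was higher in mTEC-III, at 1392 and 1361 against 862 and 814 in mTEC-I. Bmpr1b was by the same sum higher in mTEC-IV, at 256 and 253 against 143 and 170 in mTEC-I. The remaining member genes of these pathways had their highest summed mean in mTEC-I. Of 21 chemokine and interleukin genes 5 had a member, 7 peaks in all: Il7, Ccl25, Cx3cl1 and Cxcl14 as ligands and Lifr as a receptor. Cx3cl1, a membrane-bound chemokine, held 309 and 297 in mTEC-I against 109 to 184 elsewhere. Cxcl14 held 92.9 and 117.5 in mTEC-I against 30.2 to 48.7 elsewhere, and its promoter also held an ISRE.

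The Aire-stage, tuft and cornified lists hold genes known from other mTEC types. The lists are not independent of the sort, because each holds genes of the proteins used in the gates. These are H2-Aa, H2-Ab1 and H2-Eb1 in the Aire-stage list, L1cam in the tuft list and Ly6d in the cornified list. In the same way the basal list holds Itgb4. Aire itself and Cd86 had no merged peak. None of 11 Aire-stage genes and none of 15 cornified genes with a peak had a member. Of 13 tuft-cell genes 1 did, Alox5, the lipoxygenase of leukotriene synthesis, at 143 and 106 in mTEC-I against 31.5 and 29.2 (mTEC-II), 35.3 and 40.6 (mTEC-III) and 18.7 and 20.3 (mTEC-IV). The other peak of Alox5 went the other way, and the sum of both was 195 and 135 in mTEC-I against 460.2 and 479.7 in mTEC-IV. The summed level of the tuft list was 1627 and 1507 in mTEC-I and 8349 and 8725 in mTEC-IV.

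The other 3 populations also differed among themselves at the members. The rule capped all 3 of their means relative to the mTEC-I mean of the same peak. A peak could thus be strong in them and still be a member, as at Il7, with a mean of 809 in mTEC-II. Moreover, 209 members stood on the deposited peak list of mTEC-II alone. The order of the 3 populations over the members is therefore given as a description beside the shares of all peaks, and nothing is read from the difference of those shares. The tests below bear on single peaks. In 398 members (63.6%) the next population was mTEC-II, which was the highest of the 3 in 25.7% of all peaks. The next was mTEC-IV in 129 members (20.6%, beside 41.2% of all peaks) and mTEC-III in 99 (15.8%, beside 33.1%). Among the 218 members that overlapped a peak of the deposited mTEC-I list, mTEC-II was next in 140 (64.2%), while it was highest of the 3 in 13.8% of all peaks on that list.

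The pairwise tests were fitted with limma on log2(value + 1) over all 29469 peaks that passed a filter of 10 units in 2 of 6 libraries, which all 626 members passed, and a call had an adjusted p under 0.05. mTEC-II was above mTEC-III at 249 members, Kcnn3, Hoxa2 and Mir125b-1 among them, and below it at 22, among them Mir205 and Ddx60. The 249 are 39.8%, beside 20.7% of all tested peaks, and the 22 are 3.51%, beside 16.6%. The median log2 difference of mTEC-III from mTEC-II was -0.40 over the members and 0.01 over all peaks. Without mTEC-II replicate 1 the lower calls numbered 137 and without replicate 2 they numbered 141, with 12 higher calls in each case.

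Kcnn3 encodes a calcium-activated potassium channel. Its level was 184 and 172 (mTEC-II) against 67.5 and 60.1 (mTEC-III), with 322 and 258.5 in mTEC-I, and mTEC-III was lower than mTEC-II by a log2 difference of -1.47 (SE 0.14, adjusted p = 6.7e-08). At Hoxa2 the difference was -1.04 (SE 0.10, adjusted p = 8.5e-08) and at Mir125b-1 -1.19 (SE 0.12, adjusted p = 2.7e-07). In the opposite direction the smallest p-values belonged to Mir205, with a difference of 1.30 (SE 0.17, adjusted p = 3.8e-06), Ddx60, an antiviral helicase (0.77, SE 0.11, adjusted p = 1.4e-05), and Phf11d, a PHD finger protein (1.0004, SE 0.16, adjusted p = 6.1e-05). Ddx60 held 378 and 438 in mTEC-I against 137 and 127 (mTEC-II), 220.2 and 231 (mTEC-III) and 181 and 183 (mTEC-IV). The libraries of the populations did not overlap at any of these 6 peaks in the pair tested.

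mTEC-II was also above mTEC-IV at 227 members and below it at 14. The 227 are 36.3% of members, beside 18.2% of all tested peaks, and the 14 are 2.24%, beside 25.4%. The median log2 difference of mTEC-IV from mTEC-II was -0.27 over the members and 0.07 over all peaks. Scaling all libraries to equal totals in peaks moved both medians down alike, to -0.41 and -0.06. The members stood at -0.35 relative to the median of all peaks under both scalings. Such scaling shifts all peaks of a pair almost alike, so this value could hardly change and is no check of the result. The 14 became 7 without mTEC-II replicate 1 and 8 without mTEC-IV replicate 2.

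The smallest p-values for mTEC-IV below mTEC-II belonged to Serpina3i, Serpina3h and Mx1. Serpina3i and Serpina3h, neighbouring serpins of the antichymotrypsin family, had log2 differences of -3.03 (SE 0.13, adjusted p = 1.0e-13) and -4.02 (SE 0.27, adjusted p = 6.9e-11). Serpina3i held 493 and 388 in mTEC-I against 279 and 276 (mTEC-II), 194 and 237 (mTEC-III) and 34.1 and 32.3 (mTEC-IV). Serpina3h, at the member upstream of its start, held 213 and 226 in mTEC-I against 143 and 149 (mTEC-II), 104 and 95.4 (mTEC-III) and 13.2 and 4.78 (mTEC-IV). The serpins of this cluster are near-identical in places, so the assignment of reads within the cluster is uncertain. Mx1 had a difference of -2.05 (SE 0.16, adjusted p = 4.0e-10). Calls for mTEC-IV above mTEC-II were led by Tgtp1 and Tgtp2, GTPases induced by interferon gamma, and Slfn8, a Schlafen family gene. Tgtp1 held 280.1 and 270.25 in mTEC-I against 65.5 and 52.2 (mTEC-II), 49.2 and 43.6 (mTEC-III) and 142 and 134 (mTEC-IV), a log2 difference of 1.22 (SE 0.17, adjusted p = 3.1e-06). The differences were 0.90 for Tgtp2 (SE 0.15, adjusted p = 4.0e-05) and 1.21 for Slfn8 (SE 0.18, adjusted p = 7.5e-06).

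Between mTEC-IV and mTEC-III both directions were called. mTEC-IV was higher at 146 (23.3%, beside 29.7% of all peaks) and lower at 118 (18.8%, beside 20%), and the medians were 0.08 and 0.03. With equal totals in peaks the counts were 125 and 151, so the balance of directions turned with the scaling. Higher calls were led by Tgtp1 (1.56, SE 0.17, adjusted p = 1.0e-07), Tgtp2 (1.26, SE 0.15, adjusted p = 4.8e-07) and Nell2, a secreted glycoprotein (1.10, SE 0.13, adjusted p = 4.2e-07). Lower calls were led by Serpina3i (-2.65, SE 0.13, adjusted p = 3.3e-13), Serpina3h (-3.47, SE 0.27, adjusted p = 6.3e-10) and Mir205 (-2.46, SE 0.17, adjusted p = 4.7e-11).

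**Figure D4:**
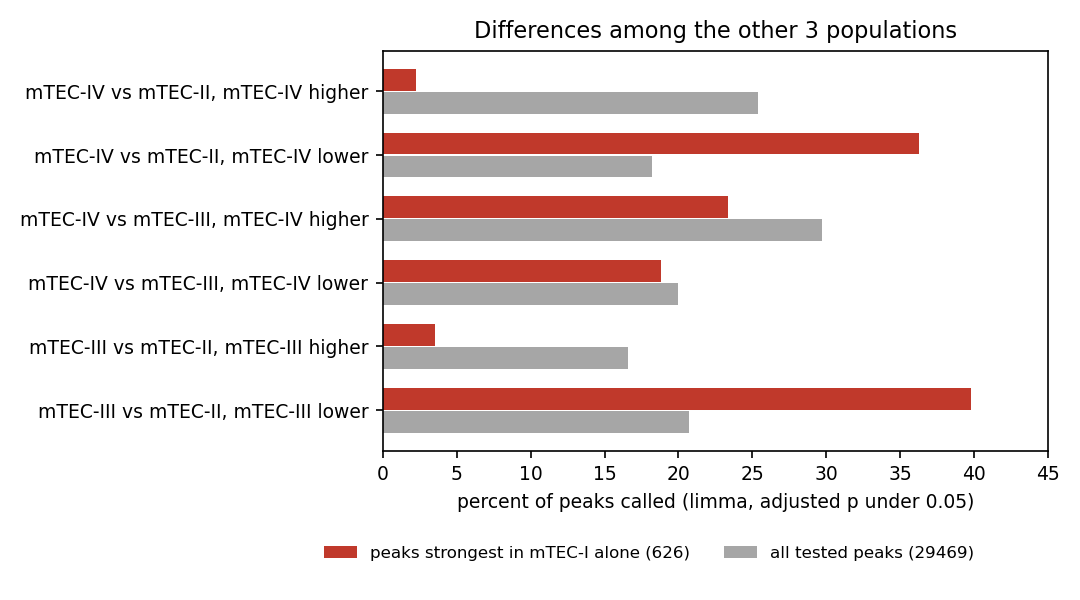
Percent of the 626 members (red) and of all 29469 tested peaks (grey) called in each direction of the 3 pairwise tests (limma, adjusted p under 0.05), on an axis from 0. The red bars stand at 36.3% and 39.8% where mTEC-II is the higher population and at 2.24% and 3.51% where it is the lower. The rule capped the level of all 3 populations relative to mTEC-I, so the distance between red and grey bars is a description of the choice.

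The same calls are given for the members of the gene lists, as counts too small to set against the shares of all peaks, of which 18.2% were lower and 25.4% higher in mTEC-IV than in mTEC-II, and 20.7% lower and 16.6% higher in mTEC-III than in mTEC-II. Of the 7 basal members, 5 were lower in mTEC-IV than in mTEC-II and none was higher, while mTEC-III was above mTEC-II at 2, both of Krt5, and below it at 3. At the intron 4 peak of Krt5 mTEC-IV differed from mTEC-III by -3.03 (SE 0.25, adjusted p = 1.3e-09), and at the upstream peak by -2.10 (SE 0.24, adjusted p = 1.6e-07). Of the 6 interferon list members, 3 were lower in mTEC-IV than in mTEC-II (Ifit3, Iigp1 and Mx1) and none was higher. At Ifit3 mTEC-IV was lower than mTEC-II by -1.48 (SE 0.22, adjusted p = 5.4e-06), and at Iigp1 by -1.06 (SE 0.13, adjusted p = 4.8e-07). Of the 4 fibroblast members 3 were lower in mTEC-IV than in mTEC-II and 3 lower in mTEC-III than in mTEC-II, with none higher. Of the 5 cortical members 1 was lower in mTEC-IV than in mTEC-II and none was higher.

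The 17 members over the start site of a gene with an ISRE in a promoter were a group put together after the values were seen. They share Ifit3 and Oas3 with the interferon list, and no difference between these groups was tested. The next population was mTEC-IV in 8 of them, mTEC-II in 7 and mTEC-III in 2. mTEC-IV was above mTEC-II at 5 and below it at 4 (25.4% and 18.2% of all tested peaks), and above mTEC-III at 8 and below it at 3 (29.7% and 20% of all tested peaks). Besides the genes already named they included Gm12250, Oas1g and Esr1, and their number is small.

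The choice of members was repeated with 1 library of each population and read in the other. Of 723 peaks chosen in the first replicates, 599 (82.8%) were highest in mTEC-I in the second, where 26.5% of all peaks were, and 335 (46.3%) again reached 1.5 times the highest other. Of 939 chosen in the second, 757 (80.6%) were highest in mTEC-I in the first, beside 28.9% of all peaks, and 339 (36.1%) reached 1.5 times. The median log2 ratio to the highest other shrank from 0.68 to 0.49 and from 0.69 to 0.34. A peak that reaches 1.5 times the highest other is also highest in mTEC-I, so the share at 1.5 times could not be the larger of the pair.

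Members near the thresholds show how fine the choice was. Just inside the ratio lay Fam159b (1.5002), Ifi35 (1.5006) and Prkag2 (1.503), and just outside it Fnta (1.4994), Mx2 (1.498) and Cpxm2 (1.498). Ifi35 and Mx2 are both interferon-induced and fell on opposite sides, with means of 348 beside 232 and 281 beside 188. At the level threshold Slc27a6 (50.9) and Sh2d4b (51.0) were among those inside, and Tyw3 (49.95), 4930546C10Rik (49.8) and Rtn2 (49.5) outside.

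The deposited peak lists bear on how the members entered the table. The mTEC-I list held 7034 peaks, and the lists of mTEC-II, mTEC-III and mTEC-IV held 23947, 19320 and 22757. A peak present in mTEC-I alone could enter the table only through the shortest of these lists. Of the members 218 (34.8%) overlapped a peak of the mTEC-I list, beside 23.4% of all peaks, and 577 (92.2%) one of the mTEC-II list, beside 80.2%. They overlapped the mTEC-III list in 296 cases and the mTEC-IV list in 316. On the mTEC-II list alone stood 209 members, and on the mTEC-I list alone 12.

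The members lay near start sites about as often as other peaks, and more often than the peaks chosen in the same way for the other populations. The centre lay within 1 kb of a start site in 256 members (40.9%, 95% Wilson interval 37.1 to 44.8), beside 38.4% of all peaks and 45.4% of peaks whose highest mean reached 50. The share was 10.8% in the 761 peaks strongest in mTEC-II alone (8.77 to 13.2), 16.6% in the 740 of mTEC-III (14.1 to 19.5) and 7.28% in the 2954 of mTEC-IV (6.40 to 8.27). The median distance was 2748.5 bases for the members, and 21773, 10533 and 23134 bases for these 3 sets. Over all peaks whose highest mean reached 50, the mTEC-I signal leaned towards start sites. Its median log2 difference from the mean of the others was 0.08 within 1 kb of a start site and between -0.23 and -0.29 beyond 5 kb. The members did not lean so among these peaks. They made up 2.33% within 1 kb, 2.61% at 1 to 5 kb and 2.11% at 5 to 20 kb. Farther out they made up 3.18% at 20 to 100 kb and 3.66% beyond 100 kb. The intervals cover counting error only, no test of these shares was run, and the part of depth or signal-to-noise in them was not tested.

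**Figure D5:**
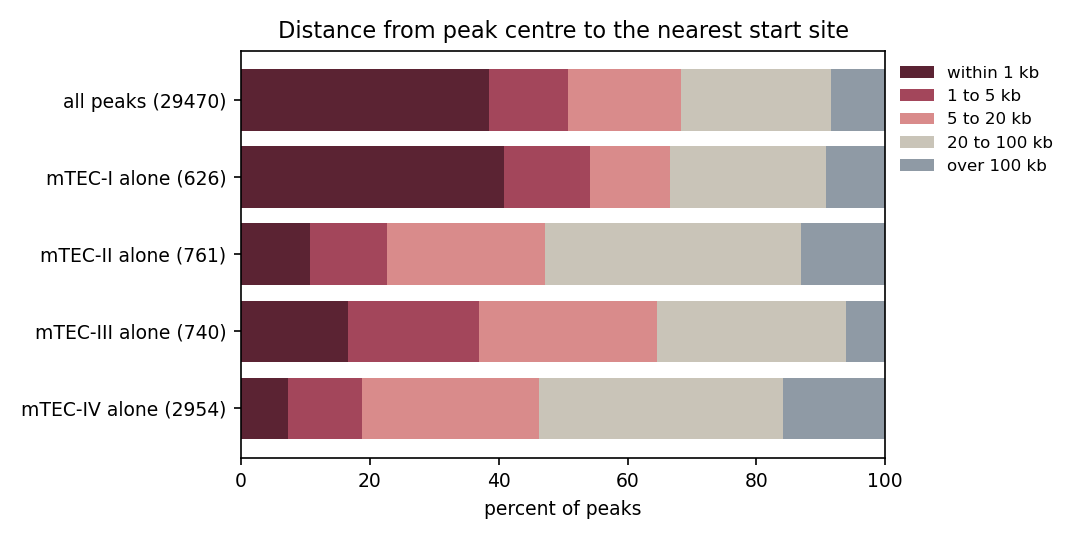
Percent of peaks by distance from the peak centre to the nearest annotated start site, for all merged peaks, for the 626 members (mTEC-I alone) and for the peaks chosen by the same rule for each other population. Members resemble all peaks (40.9% and 38.4% within 1 kb), while the sets of the other populations are mostly farther out, at 7.28% to 16.6%.

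By the file's annotation, 258 members (41.2%) lay in introns, beside 45.6% of all peaks, and 165 (26.4%) between genes, beside 26.5%. Promoters held 118 (18.8%, beside 18.2%), and exons 45 (7.19%, beside 4.57%), among them Hoxa2, Snai2 and Fzd2. CpG islands held 32 members in the detailed annotation (5.11%, beside 6.92%). The median width was 1790.5 bases, beside 2141 for all peaks. Of the members 560 were assigned to protein-coding genes and 60 to non-coding RNA genes.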

How the data were processed

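H3K4me2 was measured in 8 libraries, 2 for each of 4 sorted mTEC populations; the 8 whole-cell extracts of the 16 samples are not analysed here. The submitters' processing notes name the mm9 build, Picard 1.108 and bcl2fastq 2.15.0.4. No aligner is named (not given in the sources used here). In the merged table of peaks the authors deposited signal values, as tags per 10000000, per the file headers. Its values were turned back into tags with the library totals in the header, and all lay within 0.1 tag of a multiple of 0.5 tag. The meaning of that step is not stated. The deposited lists, with both replicates combined, give each peak's fold over a control, which is the authors' own and was used only to take the stricter part of a list.

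The members and the gene lists were chosen with earlier results of these data known. Values were averaged per population with pandas 2.3.3, and overlaps of 1 base or more were taken with bedtools 2.31.1. Pairs of the other 3 populations were tested with limma 3.58.1 (R 4.3.3) on log2(value + 1) with a trended variance, over 6 libraries, with Benjamini-Hochberg adjustment over 29469 peaks. The design had assumed that counts might be given, and the deposited values are normalized. edgeR 4.0.16 and DESeq2 1.42.0 on recovered tags were alternatives, and the fit was tested on simulated data. Fold changes on this scale understate low peaks.

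Peaks are named by the gene the file assigns. Among members with both mTEC-I libraries above all 6 others and 10 tags or more in mTEC-I replicate 2 (587 of 626), the named ones were the 12 highest by level, the 12 highest by ratio after adding 10 and the 6 genes with most members. Further names are list genes (up to 6 a list), 3 peaks on each side of each threshold, the 3 calls of smallest p per direction and pair, and the genes with a printed sequence. The other names in the text were chosen after their values were seen. Sequences are from RefSeq (GRCm38.p6), matched by gene ID, and no coordinates were moved between builds. A count of 0 allows up to 3 tags, 4.64 and 17.6 units in the mTEC-I libraries. Such limits cover counting error only.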

Additional observations from a re-analysis of the deposited data

How the results depend on the processing

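The number of members followed the rule: 126 at a ratio of 2, 1925 at the lower ratio tried and 367 at a level of 100, beside 626. Leaving out 1 library gave 598 to 997, the 997 without mTEC-I replicate 1, of which 538 were members. At a ratio of 2 the peaks chosen in one replicate and highest in mTEC-I in the other numbered 143 and 179. Within the stricter part of the mTEC-I list 110 members overlapped. The share within 1 kb of a start site was 2.45 percentage points above that of all peaks and -4.51 points from that of peaks whose highest mean reached 50.

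In the pair tests, the calls for mTEC-IV above mTEC-II fell from 14 to 6 with DESeq2 and 6 with the mTEC-II mean as 1 sample (chosen after seeing the data), and leaving out 1 library gave 7 to 17. Those for mTEC-IV below mTEC-II ran from 153 to 248 without 1 library. mTEC-IV above mTEC-III gave 70 with DESeq2, and 103 to 159 without 1 library, and mTEC-IV below mTEC-III 101 to 129. mTEC-III above mTEC-II gave 13 with all 8 libraries, 13 with DESeq2, 10 with the mTEC-II mean as 1 sample, and 12 to 22 without 1 library. mTEC-III below mTEC-II gave 165, 160, 131 and 137 to 263 under the same settings. Restricting to the 218 members on the mTEC-I list, also chosen after seeing the data, leaves fewer peaks: 91 (mTEC-IV below mTEC-II), 60 and 49 (mTEC-IV above and below mTEC-III), 10 and 109 (mTEC-III above and below mTEC-II). The cause of these changes was not tested.

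The deviations of same-numbered libraries correlated by -0.01 to 0.02 across peaks. These deviations were about the size of counting noise, so whether replicate numbers pair the samples cannot be told from them. With the replicate block the counts were 14 and 227 for mTEC-IV above and below mTEC-II, 147 and 118 for mTEC-IV against mTEC-III, and 23 and 252 for mTEC-III against mTEC-II. The depth of mTEC-I replicate 2 limits single members: 3 of its tags are worth 17.6 units. Replicates differed by about sampling noise, with a chi-square per peak of 1.007 to 1.24.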

Other observations

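The other peaks of genes with a member leaned little towards mTEC-I. Of 1014 such peaks 296 (29.2%) were highest in mTEC-I, beside 25.9% of the 27830 peaks of genes without a member. Where a gene had members only far from its start, 77 of 162 peaks at the start site (47.5%) were highest in mTEC-I, beside 39.5% of the start-site peaks of genes with no member. Another member lay within 100 kb of 102 members (16.3%). By the same count within their own sets the shares were 20.4% of the 761 peaks strongest in mTEC-II alone, 28.0% of the 740 of mTEC-III and 49.7% of the 2954 of mTEC-IV, and a larger set gives more neighbours. They made up 3.33% of the peaks of chromosome 15, the highest share, and 0.726% of those of chromosome X (4 of 551), the lowest.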
